A study of Caenorhabditis elegans with 18 samples.

Results

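The P granule genes described here are the 8 Caenorhabditis elegans genes pgl-1, pgl-2, pgl-3, glh-1, glh-2, glh-3, glh-4 and deps-1, taken by name from the 45461 genes in the deposited tables. Each name matched 1 gene. The files list them as pgl-1 (ZK381.4), pgl-2 (B0523.3), pgl-3 (C18G1.4), glh-1 (T21G5.3), glh-2 (C55B7.1), glh-3 (B0414.6), glh-4 (T12F5.3) and deps-1 (Y65B4BL.2). All 8 passed the filter on low counts, which left 16770 genes to be tested.

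The series asked what loss of hira-1 does to gene expression across development. HIRA-1 is the worm form of HIRA, a chaperone that places the histone variant H3.3 into chromatin outside DNA replication. Messenger RNA of whole worms, selected by its poly(A) tail, was sequenced with paired ends. Of the 18 samples in the series, 8 libraries in 4 groups of 2 are used: hira-1(-) adults, N2 adults, hira-1(-) L4 larvae and N2 L4 larvae. The samples of stage L1 and those numbered 3 are not analysed here. The hira-1(-) animals are strain MT23643 and carry the allele gk835598, which the series calls a null. N2 is the wild-type laboratory strain. All animals were grown at one temperature on plates with OP50 bacteria. A single mutant strain was used, so the allele and any other difference between strain MT23643 and N2 cannot be told apart. Nothing in the labels tells whether libraries of a group stem from different cultures. The p-values therefore cover the spread between these libraries alone, which may be technical. The worms were sequenced whole, and in such bulk RNA fewer cells of a type and less RNA per cell cannot be told apart.

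P granules are condensates of RNA and protein that sit at the outer face of the nuclear pores of germ cells and are passed to the germ line of each new embryo. PGL-1 and PGL-3 are scaffold proteins that bind each other and RNA, and PGL-2 is a relative that joins the granules after embryogenesis. GLH-1 to GLH-4 are DEAD-box RNA helicases of the Vasa family, of which GLH-3 lacks the glycine-rich repeats of the others. DEPS-1 is a P granule protein known to be needed for normal accumulation of glh-1 mRNA and for the assembly of PGL proteins into granules.

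The 8 libraries held 26010307 to 31174599 estimated counts, and the P granule genes had between 637.19 counts (glh-3) and 21044.24 counts (glh-1) in a library. Levels are given as counts relative to library size (CPM) after scaling of the libraries by trimmed mean of M values (TMM), and differences as log2 fold changes with their standard error (SE) and an adjusted p-value from edgeR's quasi-likelihood test with Benjamini-Hochberg adjustment over all genes tested. The threshold was an adjusted p of 0.05. The targeted gene, hira-1, had 40.7 and 40.0 CPM in hira-1(-) adults, against 108 and 109 CPM in N2 adults. At L4 it had 23.7 and 25.3 CPM in hira-1(-) larvae, against 37.4 and 32.9 CPM in N2 larvae. Its RNA was lower in the mutant at both stages, with a log2 fold change of −1.43 in adults (adjusted p = 2.0e-09) and −0.52 at L4 (adjusted p = 3.3e-05), and was still counted in every hira-1(-) library.

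Marker genes of germ cells and of somatic tissues differed between the groups too. The summed level of 13 oocyte markers was 11312 and 11958 CPM in hira-1(-) adults, against 11215 and 11739.5 CPM in N2 adults. At L4 the same sum was 2076 and 2168 CPM in hira-1(-) larvae, against 571 and 451 CPM in N2 larvae. Thus the oocyte sum was several-fold higher in L4 larvae of the mutant, whereas in adults the libraries of the genotypes overlapped. The summed level of 16 markers of mitotic and meiotic germ cells was 3111 and 3209.6 CPM in hira-1(-) adults, against 2931 and 3095 CPM in N2 adults. At L4 it was 1733 and 1764 CPM in hira-1(-) larvae, against 1146 and 1126 CPM in N2 larvae. None of the markers of germ line, muscle, intestine, neurons or hypodermis was at 0 in all libraries. The 2 N2 L4 libraries stood apart from each other in muscle transcripts, at 12309 and 8906 CPM summed over 8 markers. The part of these differences in the results below was not tested.

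In adults, 1 of the 8 P granule genes was higher in hira-1(-) than in N2, pgl-1, and 2 were lower, glh-1 and glh-2. The other 5 did not pass the threshold. Over all genes tested, 55.1% were called in this comparison, 28.6% higher and 26.5% lower, so the share of P granule genes called is no more than the background. The median log2 fold change was 0.10 over the 8 genes and 0.03 over all genes tested. With scaling by library totals in place of TMM, the median of all genes moved to 0.24, the calls over all genes moved to 7198 higher and 2320 lower, against 4790 and 4445 with TMM, and those of the P granule genes to 5 higher and 1 lower. With both scalings glh-1 was called lower and pgl-1 higher. The column of replicate 2 of the hira-1(-) adults is named with a digit 1 where the label has the letter I; without that library 1 gene was higher and 2 were lower in adults.

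Among the PGL genes of adults, pgl-1 had 660.5 and 711 CPM in hira-1(-) libraries, against 549.9 and 572 CPM in N2 libraries. Both mutant adults were above both N2 adults, with a log2 fold change of 0.29 (SE 0.06, 1.22-fold, adjusted p = 0.00172). The level of pgl-2 was 67.2 and 61.4 CPM in hira-1(-) adults, against 60.5 and 59.3 CPM in N2 adults. The libraries of the groups lay close without overlapping, as they did not overlap for 78.9% of all genes tested, and the difference of 0.10 did not pass the test (SE 0.06, adjusted p = 0.157). For pgl-3, 228 and 263 CPM were measured in hira-1(-) adults, against 218 and 228 CPM in N2 adults. Its log2 fold change of 0.14 did not pass either (SE 0.08, adjusted p = 0.15), and depended on the library: it was 0.23 (adjusted p = 0.0332) without replicate 1 of the hira-1(-) adults, 0.03 (adjusted p = 0.779) without their replicate 2 and 0.05 (adjusted p = 0.679) without replicate 1 of the N2 adults.

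Among the helicase genes of adults, glh-1 had 449 and 507 CPM in hira-1(-) libraries, against 678 and 755 CPM in N2 libraries. Its groups lay well apart, at 478 ± 41.5 CPM in hira-1(-) and 716 ± 54.8 CPM in N2 (SD, n = 2 each), with a log2 fold change of −0.58 (SE 0.07, 0.67-fold, adjusted p = 1.3e-05 by edgeR). The level of glh-2 was 192 and 211 CPM in hira-1(-) adults, against 242 and 267 CPM in N2 adults. Its log2 fold change was −0.34 (SE 0.08, 0.79-fold, adjusted p = 0.00622). This glh-2 call was lost in 5 of 19 alternatives. With library totals the value was −0.13 (adjusted p = 0.159). Without replicate 2 of the N2 adults, which also lost the call, it was −0.27. Levels of glh-3 were 79.6 and 84.2 CPM in hira-1(-) adults, against 73.9 and 78.6 CPM in N2 adults, a difference of 0.10 on the log2 scale (SE 0.06, adjusted p = 0.146). For glh-4 the libraries of the groups overlapped, with 216 and 246 CPM in hira-1(-) adults, against 197 and 219 CPM in N2 adults (log2 fold change 0.15, SE 0.07, adjusted p = 0.0676). The glh-4 difference passed at 0.24 (adjusted p = 0.0184) without replicate 1 of the hira-1(-) adults and at 0.23 (adjusted p = 0.0341) without replicate 2 of the N2 adults. It was 0.05 (adjusted p = 0.579) without replicate 2 of the hira-1(-) adults and 0.02 (adjusted p = 0.809) without replicate 1 of the N2 adults. Thus of the 4 helicase genes, the pair called in adults was lower, while both uncalled members had mean levels above those of N2.

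The gene deps-1 had 268 and 258 CPM in hira-1(-) adults, against 283 and 294 CPM in N2 adults. Both mutant libraries were below both N2 libraries, and the log2 fold change of −0.13 lay at the edge of the threshold (SE 0.05, adjusted p = 0.0504). It passed as lower in 8 of the other 19 settings tried, among them without replicate 1 of the N2 adults (−0.22, adjusted p = 0.0182) and without replicate 1 or replicate 2 of the N2 L4 larvae (adjusted p = 0.0107 and 0.0115). With library totals its sign turned to 0.07 (adjusted p = 0.280).

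**Figure D1:**
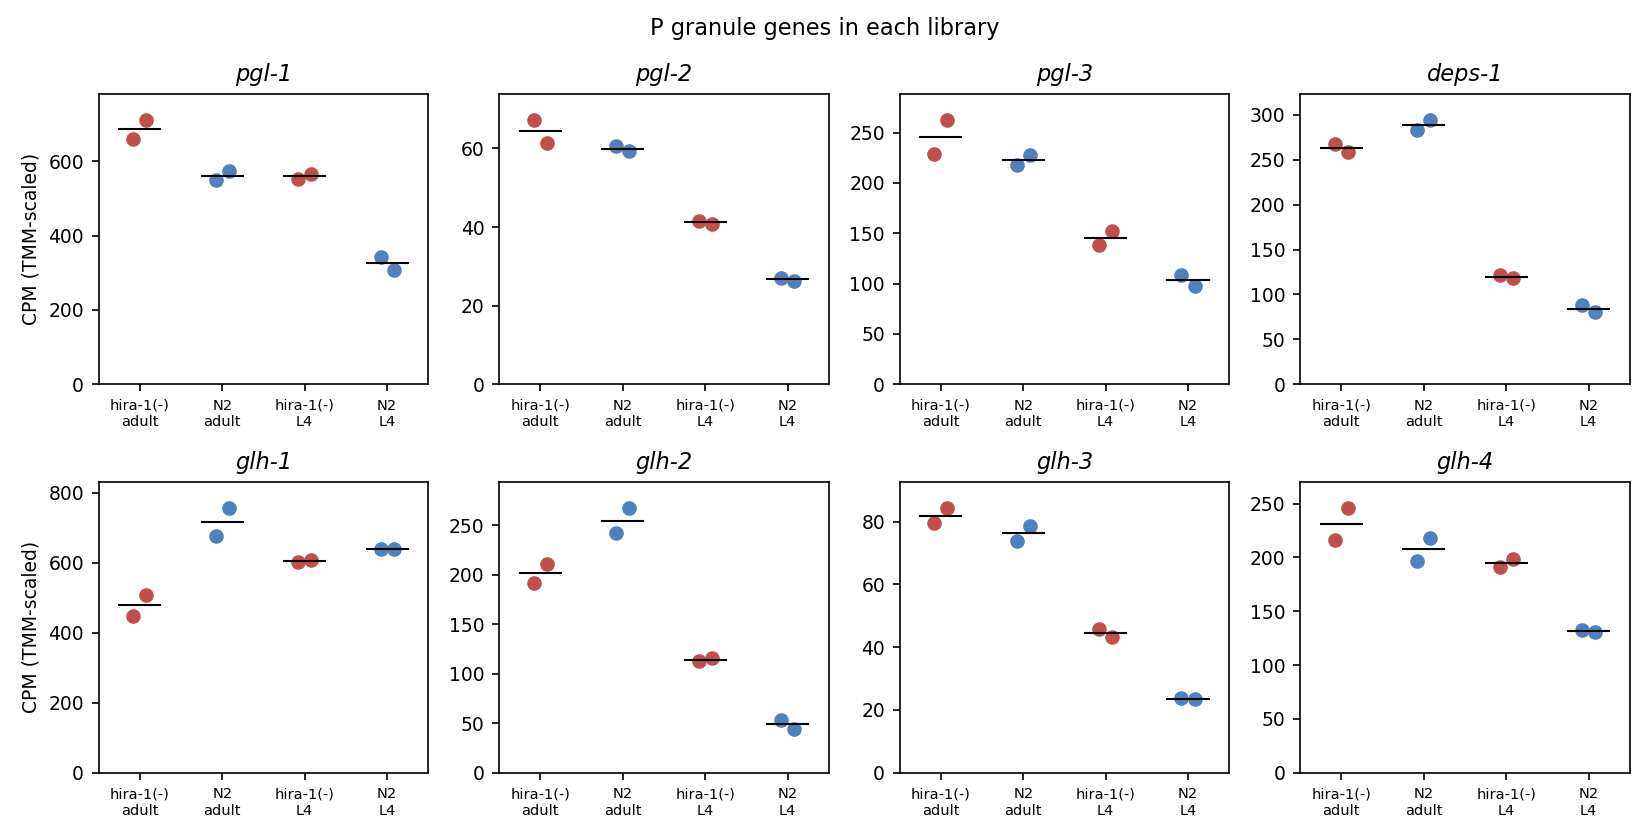
Level of each P granule gene in each library (y axis, TMM-scaled CPM, starting at 0; points, libraries; lines, group means) in hira-1(-) and N2 adults and in hira-1(-) and N2 L4 larvae. The hira-1(-) larvae lie above the N2 larvae for every gene but glh-1, and the hira-1(-) adults lie below the N2 adults for glh-1, glh-2 and deps-1.

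At L4, 7 of the 8 P granule genes were higher in hira-1(-) than in N2 and none was lower. The exception was glh-1. Of all genes tested, 58.0% were called at this stage, 35.5% higher and 22.6% lower. The median log2 fold change of the 8 genes was 0.59, beside 0.10 over all genes tested, which moved to 0.24 with library totals. With library totals 7353 genes were called higher and 2819 lower, and with the L4 libraries fitted alone 4644 and 4555, against 5951 and 3782 in the fit of all 4 groups. The same 7 P granule genes were higher under both of these alternatives.

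All 3 PGL genes were higher in the mutant larvae. The level of pgl-1 was 552 and 566 CPM in hira-1(-) larvae, against 344 and 308 CPM in N2 larvae. This was a 1.72-fold difference, 0.78 on the log2 scale (SE 0.06, adjusted p = 3.3e-07). For pgl-2, 41.6 and 40.7 CPM were counted in hira-1(-) larvae, against 27.05 and 26.4 CPM in N2 larvae (log2 fold change 0.62, SE 0.06, adjusted p = 2.7e-06). For pgl-3 there were 138 and 152 CPM in hira-1(-) larvae, against 109 and 97.3 CPM in N2 larvae. This was the smallest called difference of the 8 genes, 0.49 (SE 0.08, adjusted p = 2.9e-04), and it was 0.31 (adjusted p = 0.0043) without replicate 2 of the N2 larvae.

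The helicase genes of L4 larvae spread most. The level of glh-2 was 113 and 116 CPM in hira-1(-) larvae, against 53.5 and 44.3 CPM in N2 larvae, a 2.34-fold difference. Its log2 fold change of 1.22 was the largest of the 8 genes (SE 0.09, adjusted p = 1.4e-06). The level of glh-3 was 45.7 and 43.2 CPM in hira-1(-) larvae, against 23.7 and 23.4 CPM in N2 larvae (log2 fold change 0.92, SE 0.06, adjusted p = 7.4e-08). The level of glh-4 was 191 and 199 CPM in hira-1(-) larvae, against 133 and 131 CPM in N2 larvae (log2 fold change 0.56, SE 0.07, adjusted p = 1.2e-05). By contrast, glh-1 had 601 and 607 CPM in hira-1(-) larvae, against 638 and 639 CPM in N2 larvae. Those groups did not overlap, as for 78.9% of all genes tested, and the difference of −0.08 did not pass (SE 0.07, 0.95-fold, adjusted p = 0.337). It passed as lower without replicate 1 of the N2 adults (−0.19, adjusted p = 0.0192) and with the L4 libraries fitted alone (−0.18, adjusted p = 0.027), while library totals gave 0.06 (adjusted p = 0.487). No setting gave a higher call for glh-1 at L4.

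The gene deps-1 had 121 and 118 CPM in hira-1(-) larvae, against 88.4 and 80.2 CPM in N2 larvae. Its log2 fold change was 0.51 (SE 0.06, 1.42-fold, adjusted p = 6.2e-06), and 0.33 (adjusted p = 3.5e-04) without replicate 2 of the N2 larvae. At L4 the RNAs of deps-1, glh-2, glh-3 and glh-4 were thus higher in hira-1(-), and glh-1 was not called. Of 16 germ cell markers, 14 were higher and 1 lower at this stage. Any link between deps-1 and the GLH genes was not tested.

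**Figure D2:**
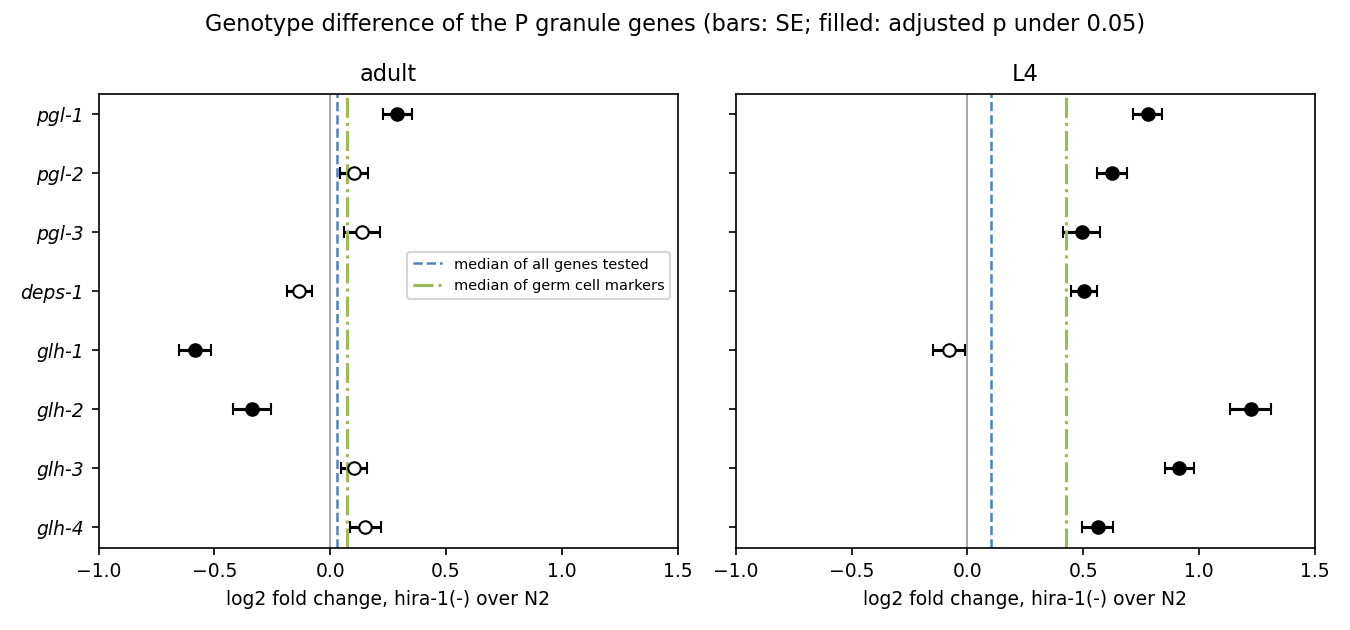
Log2 fold change of each P granule gene, hira-1(-) over N2 (x axis), in adults and at L4. Points are fitted values with their SE, filled where the adjusted p was under 0.05, and the vertical lines mark the median of all genes tested (0.03 in adults, 0.10 at L4) and of the germ cell markers (0.07 in adults, 0.42 at L4). In both panels glh-1 is the lowest of the 8 genes.

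The genotype difference was lower in adults than at L4 for all 8 genes. The test of that difference, adult minus L4 in one model of the 4 groups, called 8 of 8 P granule genes lower. Of all genes tested, 50.4% were called, 29.7% lower and 20.7% higher. The median was −0.51 over the 8 genes and −0.07 over all genes. The interaction was −1.56 for glh-2 (SE 0.12, adjusted p = 3.7e-06), which was lower in hira-1(-) adults and higher in hira-1(-) larvae. It was −0.81 for glh-3 (SE 0.08, adjusted p = 5.3e-06) and −0.64 for deps-1 (SE 0.08, adjusted p = 2.1e-05). For pgl-1, pgl-2, glh-1 and glh-4 it lay between −0.41 and −0.52. Although glh-1 was the gene not called at L4, its interaction of −0.50 (SE 0.10, adjusted p = 7.5e-04) was of the same size as that of pgl-1 at −0.49 (SE 0.09, adjusted p = 5.2e-04). The pgl-3 interaction was the smallest, −0.36 (SE 0.11, adjusted p = 0.0201), and lost its call in 8 of 18 alternatives. Without replicate 2 of the hira-1(-) adults 8 genes were again lower. The pgl-3 interaction lost its call without replicate 2 of the hira-1(-) larvae (adjusted p = 0.0792), replicate 2 of the N2 larvae (−0.21, adjusted p = 0.118), replicate 1 of the hira-1(-) adults (adjusted p = 0.0698) or replicate 2 of the N2 adults (adjusted p = 0.0815).

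Between stages, the comparisons share their libraries with the comparisons above, and their values are given as each one's own. In hira-1(-), adults had higher levels than larvae of 7 of the 8 genes and a lower level of glh-1. In N2, all 8 were higher in adults. No gene of the 8 had overlapping libraries between the stages of a genotype, as was so for 88.1% of all genes in hira-1(-) and 89.5% in N2. Over all genes, 74.4% were called with stage in hira-1(-), 36.0% higher and 38.4% lower, and 81.6% in N2, 38.2% higher and 43.4% lower. The largest change with stage was that of glh-2 in N2, 2.38 on the log2 scale (5.20-fold, adjusted p = 1.5e-09), while in hira-1(-) it was 0.82 (1.76-fold, adjusted p = 7.5e-06). The change of deps-1 was 1.14 in hira-1(-) (2.20-fold, adjusted p = 6.1e-10) and 1.77 in N2 (3.42-fold, adjusted p = 4.6e-12). That of glh-3 was 0.88 in hira-1(-) (adjusted p = 1.1e-08) and 1.69 in N2 (adjusted p = 1.7e-11). The PGL genes were higher in adults of both genotypes. Their log2 fold changes in hira-1(-) were 0.29 for pgl-1, 0.64 for pgl-2 and 0.76 for pgl-3, and in N2 they were 0.78, 1.16 and 1.11. For glh-4 the values were 0.24 in hira-1(-) (adjusted p = 0.00459) and 0.65 in N2 (adjusted p = 8.4e-07). The hira-1(-) value of glh-4 was 0.15 (adjusted p = 0.0867) without replicate 2 of the hira-1(-) adults.

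The stage change of glh-1 went opposite ways in the genotypes. It fell by 0.34 on the log2 scale in hira-1(-) adults relative to hira-1(-) larvae (0.79-fold, adjusted p = 5.1e-04). In N2 adults it was 0.17 higher than in N2 larvae (1.12-fold, adjusted p = 0.0366). The N2 call was weak: library totals gave 0.00 (adjusted p = 0.975), and it was lost in 12 of 19 alternatives. It was lost without replicate 1 or 2 of the N2 larvae (0.07, adjusted p = 0.429, and 0.09, adjusted p = 0.335), without replicate 2 of the N2 adults (0.09, adjusted p = 0.312) and without replicate 1 or 2 of the hira-1(-) larvae (adjusted p = 0.0612 and 0.0615).

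To compare the genes with one another, levels per transcript length were taken from the deposited FPKM values (fragments per kilobase of transcript, relative to library size). The most abundant P granule transcript differed with genotype. In hira-1(-) adults it was pgl-1, with 289 and 303 FPKM, above glh-1 with 179 and 198 FPKM. In N2 adults it was glh-1, with 230.4 and 259 FPKM, above pgl-1 with 205 and 214 FPKM. In hira-1(-) larvae pgl-1 with 253 and 259.6 FPKM and glh-1 with 252 and 256 FPKM overlapped. In N2 larvae glh-1 with 242 and 246 FPKM stood above pgl-1 with 143 and 129 FPKM. These 2 genes ranked among the abundant transcripts of the whole worm, between the percentiles 94.0 and 97.6 of the genes tested for pgl-1 and between 95.7 and 97.1 for glh-1.

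Below that pair, deps-1 and pgl-3 came next in every group. The level of deps-1 was 134 and 127 FPKM in hira-1(-) adults, 121 and 127 FPKM in N2 adults, 64.2 and 62.5 FPKM in hira-1(-) larvae and 42.3 and 38.9 FPKM in N2 larvae. The level of pgl-3 was 103.7 and 116 FPKM in hira-1(-) adults, 84.6 and 88.3 FPKM in N2 adults, 65.8 and 72.3 FPKM in hira-1(-) larvae and 47.3 and 42.1 FPKM in N2 larvae. In adults deps-1 was above pgl-3. In larvae pgl-3 was above deps-1 in hira-1(-), and the 2 genes overlapped in N2. The genes glh-4 and glh-2 followed. Levels of glh-4 were 59.4 and 66.2 FPKM in hira-1(-) adults, 45.9 and 51.4 FPKM in N2 adults, 55.2 and 57.9 FPKM in hira-1(-) larvae and 34.5 and 34.7 FPKM in N2 larvae. Levels of glh-2 were 62.4 and 67.4 FPKM in hira-1(-) adults, 67.3 and 74.7 FPKM in N2 adults, 38.7 and 39.7 FPKM in hira-1(-) larvae and 16.6 and 13.9 FPKM in N2 larvae. In hira-1(-) adults these 2 overlapped, in N2 adults glh-2 was above glh-4, and in larvae of both genotypes glh-4 was above glh-2. The lowest were pgl-2 and glh-3. The level of pgl-2 was 40.3 and 36.1 FPKM in hira-1(-) adults, 30.9 and 30.6 FPKM in N2 adults, 26.3 and 25.8 FPKM in hira-1(-) larvae and 15.4 and 15.2 FPKM in N2 larvae, where it overlapped with glh-2. The level of glh-3 was 32.5 and 33.8 FPKM in hira-1(-) adults, 25.8 and 27.7 FPKM in N2 adults, 19.7 and 18.7 FPKM in hira-1(-) larvae and 9.25 and 9.24 FPKM in N2 larvae, the lowest of the 8 in each group.

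In the make-up of the P granule transcripts, glh-1 took a smaller share and pgl-1 a larger share in hira-1(-) than in N2 at both stages. Of the summed FPKM of the 8 genes, glh-1 took 19.8% and 20.9% in hira-1(-) adults, against 28.4% and 29.7% in N2 adults. At L4 glh-1 took 32.6% and 32.3% in hira-1(-) larvae, against 44.0% and 46.4% in N2 larvae. The sum itself was 775 and 792 FPKM in hira-1(-) larvae, against 550 and 529 FPKM in N2 larvae. The FPKM of glh-1 was not lower there, at 252 and 256 in hira-1(-) larvae, against 242 and 246 in N2 larvae. Its smaller share at L4 is thus a smaller part of a larger sum. The share of pgl-1 was 32.1% and 32.0% in hira-1(-) adults, against 25.2% and 24.5% in N2 adults. At L4 it was 32.6% and 32.8% in hira-1(-) larvae, against 25.97% and 24.4% in N2 larvae. As a family, the PGL genes held 48.1% and 48.0% in hira-1(-) adults, against 39.5% and 38.1% in N2 adults, and 44.5% and 45.2% in hira-1(-) larvae, against 37.4% and 35.3% in N2 larvae. The share of pgl-1 thus lay within narrow limits in each genotype at both stages, while that of glh-1 was lower in adults than at L4 in both. The share of deps-1 differed more with stage than with genotype, at 14.9% and 13.4% in hira-1(-) adults and 14.9% and 14.6% in N2 adults, and at 8.27% and 7.90% in hira-1(-) larvae and 7.68% and 7.35% in N2 larvae. The share of glh-2 went opposite ways at the 2 stages, at 6.93% and 7.11% in hira-1(-) adults, against 8.30% and 8.57% in N2 adults, and at 5.00% and 5.02% in hira-1(-) larvae, against 3.01% and 2.63% in N2 larvae. The shares were not tested, and an exact permutation test of 2 libraries against 2 cannot give a p below 0.333.

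**Figure D3:**
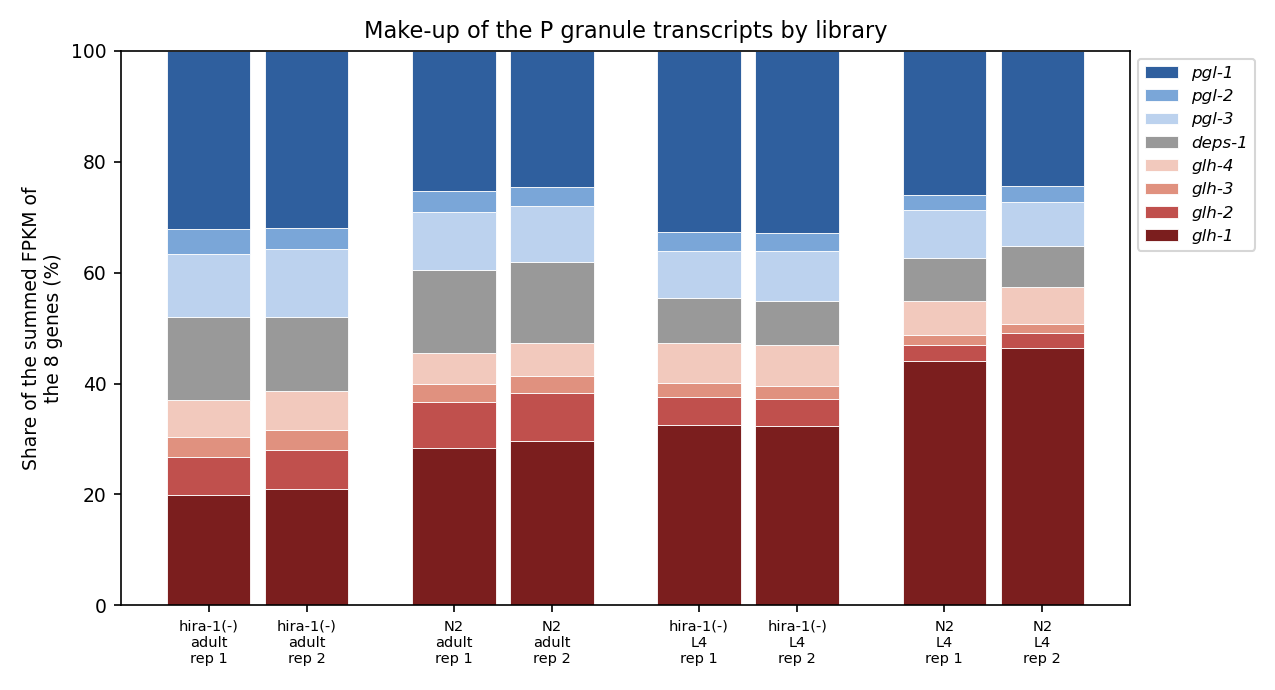
Share of the summed FPKM of the 8 P granule genes (y axis, %) taken by each gene in each library, for hira-1(-) and N2 adults and hira-1(-) and N2 L4 larvae. The glh-1 segment is smaller in hira-1(-) than in N2 at both stages (19.8% and 20.9% against 28.4% and 29.7% in adults), and the deps-1 segment is larger in adults. At L4 the level of glh-1 itself was not called different between the genotypes.

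Ratios within a library do not depend on how libraries are scaled. The ratio of pgl-1 to glh-1, chosen after the values were seen, was 1.62 and 1.53 in hira-1(-) adults, against 0.89 and 0.83 in N2 adults. At L4 the pgl-1 to glh-1 ratio was 1.00 and 1.02 in hira-1(-) larvae, against 0.59 and 0.53 in N2 larvae. The log2 difference between genotypes, hira-1(-) minus N2, was 0.88 in adults and 0.86 at L4, with a pooled SD between replicates of 0.08. The ratio of glh-1 to its paralogue glh-4 was 3.01 and 3.00 in hira-1(-) adults, against 5.02 and 5.04 in N2 adults. At L4 it was 4.57 and 4.41 in hira-1(-) larvae, against 7.01 and 7.08 in N2 larvae. The log2 difference was −0.74 in adults and −0.65 at L4, with a pooled SD of 0.02. Relative to pgl-1 and to glh-4, glh-1 was therefore lower in the mutant at each stage. Between stages, the pgl-1 to glh-1 differences lay within the pooled SD of each other, while those of glh-1 to glh-4 lay further apart than theirs. No test of these differences between stages was made.

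The ratio of glh-1 to glh-2 behaved otherwise. It was 2.86 and 2.94 in hira-1(-) adults, against 3.42 and 3.46 in N2 adults, a log2 difference of −0.25. At L4 it was 6.52 and 6.43 in hira-1(-) larvae, against 14.6 and 17.6 in N2 larvae, a log2 difference of −1.31, with a pooled SD of 0.10. The genotypes did not overlap at either stage, but the gap was several times wider in larvae. The ratio of pgl-1 to pgl-3 was 2.79 and 2.62 in hira-1(-) adults, against 2.42 and 2.42 in N2 adults. At L4 it was 3.85 and 3.59 in hira-1(-) larvae, against 3.02 and 3.07 in N2 larvae. The log2 differences of 0.16 and 0.29 exceeded the pooled SD of 0.05.

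**Figure D4:**
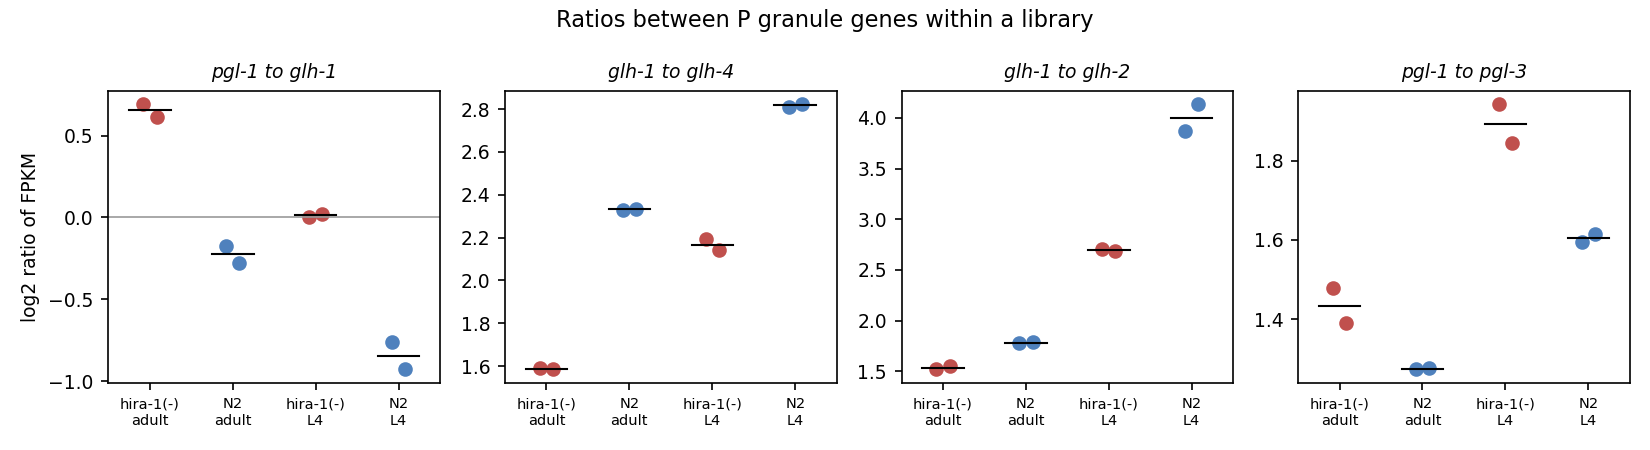
Log2 ratio of FPKM between pairs of P granule genes within each library (y axis, with its own range in each panel; points, libraries; lines, group means) in hira-1(-) and N2 adults and hira-1(-) and N2 L4 larvae. The difference between genotypes is 0.88 in adults and 0.86 at L4 for pgl-1 to glh-1, −0.74 in adults and −0.65 at L4 for glh-1 to glh-4, and −0.25 in adults and −1.31 at L4 for glh-1 to glh-2.

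Over the 8 libraries the PGL genes lay near each other in pattern, but some lay as near to GLH genes. The 3 most distant pairs all held glh-1. Centred on its own mean log2 CPM, each gene was compared with each other in 28 pairs by the root mean square difference. The closest pairs were pgl-2 with pgl-3 and pgl-1 with glh-4, both at 0.11, followed by glh-3 with deps-1 at 0.19. The other PGL pairs were pgl-1 with pgl-2 at 0.21 and pgl-1 with pgl-3 at 0.23. Similar distances separated pgl-2 from glh-3 (0.23) and pgl-3 from glh-3 (0.24). The most distant were glh-1 with glh-2 at 0.97, glh-1 with deps-1 at 0.82 and glh-1 with glh-3 at 0.81. The range over libraries was widest for glh-2, whose highest library had 6.02 times the CPM of its lowest, and narrowest for glh-1 at 1.68 times. Between these lay glh-4 at 1.87, pgl-1 at 2.31, pgl-2 at 2.55, pgl-3 at 2.70, glh-3 at 3.59 and deps-1 at 3.67. These distances are descriptions over libraries that share their stages and genotypes.

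Among 8039 genes with at least 5 CPM in every library, the closest in pattern to pgl-1 were rec-8 (0.045), tat-3 (0.059), Y57A10A.2 (0.062), tebp-2 (0.070) and wago-4 (0.074). The meiotic cohesin gene rec-8 averaged 94.1 CPM in hira-1(-) adults, 75.3 CPM in N2 adults, 73.9 CPM in hira-1(-) larvae and 44.8 CPM in N2 larvae. The closest to glh-1 were clp-7 (0.033), C43E11.9 (0.058), cri-3 (0.062), Y54E10A.10 (0.065) and mecr-1 (0.065). The calpain gene clp-7 averaged 66.5 CPM in hira-1(-) adults, 97.1 CPM in N2 adults, 83.1 CPM in hira-1(-) larvae and 91.0 CPM in N2 larvae. No gene could be among the 5 closest of both, since pgl-1 and glh-1 themselves lay 0.54 apart.

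Reads that could be shared with similar or overlapping genes limit some of these values. Fractional counts, which arise where the counting program divides reads between genes or transcripts, were found in all 8 libraries for pgl-1, glh-1, glh-2, glh-4 and deps-1, in 7 for pgl-3, in 6 for glh-3 and in 5 for pgl-2. The GLH genes are paralogues, so reads from their conserved helicase part may be divided between them. Exon overlaps were read from an annotation of a genome build other than the ce10 build of the counts. In that annotation, exons of pgl-2 overlap those of fli-1 on the same strand. Exons of deps-1 overlap those of Y65B4BL.7 on the opposite strand. The overlapping gene fli-1 had 62.6 to 132 CPM, with a log2 fold change of −0.07 in adults (adjusted p = 0.254) and 0.46 at L4 (adjusted p = 1.2e-05). The gene Y65B4BL.7 had 1.18 to 4.74 CPM. The sources used here do not state whether strand was used in counting. The exons of the other 6 overlap no other gene in the annotation read here, which was not checked for the gene models of the counts.

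Other genes of the P granule pathway were examined by lists, described by counts and medians. The list counts below stand beside the shares of all genes tested. These were 28.6% higher and 26.5% lower in adults (median 0.03), and 35.5% higher and 22.6% lower at L4 (median 0.10). With library totals, 7198 of the 16770 genes tested were called higher and 2320 lower in adults. No test compared a list with these shares. Of 16 other P granule proteins, 2 were higher and 6 lower in hira-1(-) adults (median −0.06, turned to 0.15 by library totals), and 14 were higher and none lower at L4 (median 0.82). The PIWI Argonaute gene prg-1 was higher at both stages, at 558.9 ± 22.4 CPM in hira-1(-) adults and 331.4 ± 14.6 CPM in N2 adults (SD, n = 2 each; log2 fold change 0.75, adjusted p = 1.3e-07 by edgeR). At L4 it was at 612.8 ± 7.30 CPM in hira-1(-) larvae and 227.4 ± 1.23 CPM in N2 larvae (log2 fold change 1.43, adjusted p = 4.6e-10 by edgeR). MEG proteins shape P granules in early embryos. In adults meg-4 was lower (−0.56, adjusted p = 1.4e-04), but not called by limma with a pseudocount of 0.1 (−0.35, adjusted p = 0.0963). Likewise meg-3 was lower in adults (−0.32, adjusted p = 7.9e-04), but not called with library totals (−0.11, adjusted p = 0.173) or by either limma fit (adjusted p = 0.362 and 0.466). At L4 meg-3 was higher (2.79, adjusted p = 8.8e-09) and so was meg-1 (3.11, adjusted p = 9.8e-10), in a stage where N2 larvae had 1.28 CPM of meg-1 and 0.745 CPM of meg-3. The Vasa- and Belle-like helicase gene vbh-1 was lower in adults (−0.36, adjusted p = 6.0e-05). The gene mip-1, whose LOTUS-domain protein anchors GLH-1 in the granules, was higher at L4 (0.94, adjusted p = 6.3e-09). With library totals the adult count of this list became 9 higher and 3 lower.

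Of 15 genes of the neighbouring small RNA granules, 3 were higher and 2 lower in adults (median 0.04, turned to −0.03 by RLE factors), and 14 were higher and none lower at L4 (median 0.49). In adults wago-4 (0.46, adjusted p = 4.2e-04) and znfx-1 (0.39, adjusted p = 0.002), which encode Z granule proteins, were higher. At L4 the nuclear Argonaute gene hrde-1 (1.27, adjusted p = 8.3e-10) and simr-1 (1.19, adjusted p = 5.9e-09) were among those higher. With library totals 12 were higher and none lower in adults. Of 4 genes whose proteins bind or regulate GLH proteins, 2 were higher and 1 lower at each stage. The gene kgb-1, whose kinase marks GLH-1 for degradation, was higher in adults (0.59, adjusted p = 3.8e-06) and had a difference of −0.01 at L4 (adjusted p = 0.90), which library totals turned to 0.13. Its opponent csn-5, a subunit of the COP9 signalosome, was lower in adults (−0.18, adjusted p = 0.017), where library totals gave 0.03, and higher at L4 (0.56, adjusted p = 5.3e-06). Its adult call was lost without replicate 1 of the hira-1(-) adults (adjusted p = 0.112) or replicate 2 of the N2 adults (adjusted p = 0.0634). The gene pan-1 was higher at both stages (1.05 in adults, adjusted p = 3.7e-08, and 0.39 at L4, adjusted p = 6.3e-05). At L4 the pan-1 value was 0.22 (adjusted p = 0.0095) without replicate 1 of the N2 larvae. The gene zyx-1 had −0.27 in adults (adjusted p = 0.089) and was lower at L4 (−0.86, adjusted p = 5.4e-04). Its adult value passed at −0.31 without either N2 L4 library (adjusted p = 0.00117 without replicate 1 and 0.00106 without replicate 2).

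Of 12 genes of the autophagy pathway that clears PGL proteins from the somatic cells of embryos, 7 were higher and none lower in adults (median 0.25), and 9 were higher and none lower at L4 (median 0.35). The receptor gene sqst-1 was at 84.9 ± 5.46 CPM in hira-1(-) adults and 22.7 ± 2.21 CPM in N2 adults (SD, n = 2 each; log2 fold change 1.91, adjusted p = 5.6e-10 by edgeR), and was higher by 1.01 at L4 (adjusted p = 8.2e-08). The gene lgg-1, which encodes a protein of the autophagosome membrane, was higher by 0.73 in adults (adjusted p = 1.1e-07). Of 16 genes that repress germ line genes in somatic cells, 5 were higher and 3 lower in adults (median −0.05, turned to 0.16 by library totals), and all 16 were higher at L4 (median 0.64), among them lin-13 (1.00, adjusted p = 7.9e-09) and dpl-1 (0.95, adjusted p = 1.5e-08). In adults lin-15B (0.44, adjusted p = 2.9e-04) and lin-13 (0.34, adjusted p = 1.3e-04) were higher. With library totals, 10 of those 16 were higher and none lower in adults. Of 5 chromatin genes that maintain the germ line, 1 was higher and none lower in adults (mes-3, 0.32, adjusted p = 1.0e-04), and 5 were higher at L4, with mes-6 at 0.67 (adjusted p = 9.8e-08). In adults library totals called 5 of these higher, and RLE factors called 1 lower.

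Of the marker lists, those of germ cells, oocytes and sperm had more members higher than lower at L4, as had the P granule genes. For sperm markers the numbers were close, at 5 and 4. Of all genes tested, 35.5% were higher and 22.6% lower at this stage. Of 16 markers of mitotic and meiotic germ cells, 5 were higher and 3 lower in adults (median 0.07), and 14 were higher and 1 lower at L4 (median 0.42). With library totals 11 were higher and 0 lower in adults, with a median of 0.28, and with RLE factors 3 were higher. At L4 gld-3 (1.00, adjusted p = 5.7e-09) and the germ line Notch receptor gene glp-1 (0.96, adjusted p = 7.8e-09) were higher. Of 13 oocyte markers, 2 were higher and 3 lower in adults (median −0.09, turned to 0.12 by library totals), and all 13 were higher at L4 (median 2.29), led by puf-5 (3.30, adjusted p = 1.2e-12) and puf-3 (2.48, adjusted p = 7.3e-11). Of 13 sperm markers, none was higher and 8 were lower in adults (median −1.003), and 5 were higher and 4 lower at L4 (median 0.10). Their summed level was 85.3 and 101 CPM in hira-1(-) adults, against 238 and 271 CPM in N2 adults, and 509 and 517 CPM in hira-1(-) larvae, against 442 and 402 CPM in N2 larvae.

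Set beside the germ cell median, the L4 values of pgl-3, deps-1 and glh-4 lay 0.07, 0.08 and 0.14 above it, and that of pgl-2 lay 0.20 above. The value of pgl-1 lay 0.35 above, that of glh-3 0.49 above and that of glh-2 0.80 above, while that of glh-1 lay −0.50 from it. In adults pgl-2, pgl-3, glh-3 and glh-4 lay 0.03 to 0.08 above the germ cell median and pgl-1 0.22 above. The values of deps-1, glh-2 and glh-1 lay −0.20, −0.41 and −0.65 from it. The germ cell markers themselves ran from −1.71 to 1.00 at L4, a range that held every P granule value but that of glh-2. Within this range, 14 of the 16 markers were called higher and 1 lower, whereas glh-1 was not called. In adults the germ cell markers ran from −0.30 to 0.46, which held all but glh-1 and glh-2. The interaction of germ cell markers had a median of −0.44, with 12 of 16 lower and 2 higher, beside −0.51 for the P granule genes, and that of oocyte markers was −2.11, with 13 of 13 lower.

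Somatic markers differed too, beside 55.1% of all genes tested called in adults and 58.0% at L4. Of 8 body wall muscle markers, 4 were higher and 3 lower in adults (median 0.51), and none was higher and 7 were lower at L4 (median −0.80). Of 8 intestine markers, 2 were higher and 3 lower in adults (median −0.06, turned to 0.14 by library totals), and 1 was higher and 7 lower at L4 (median −0.33). Of 8 neuron markers, 2 were higher and 1 lower in adults (median 0.08), and 1 was higher and 3 lower at L4 (median −0.06, which library totals turned to 0.08). Of 8 hypodermis markers, 5 were higher and none lower in adults (median 2.89), and 3 were higher and 4 lower at L4 (median −0.25). This list also changed strongly with stage, with a median of −7.50 in N2 adults relative to N2 larvae. Its values therefore do not measure the amount of hypodermis alone. Summed hypodermis markers were at 397 and 417 CPM in hira-1(-) adults, against 224 and 226 CPM in N2 adults, and at 2983 and 3105 CPM in hira-1(-) larvae, against 6464 and 6503 CPM in N2 larvae. The part of these shifts in the P granule values was not tested.

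**Figure D5:**
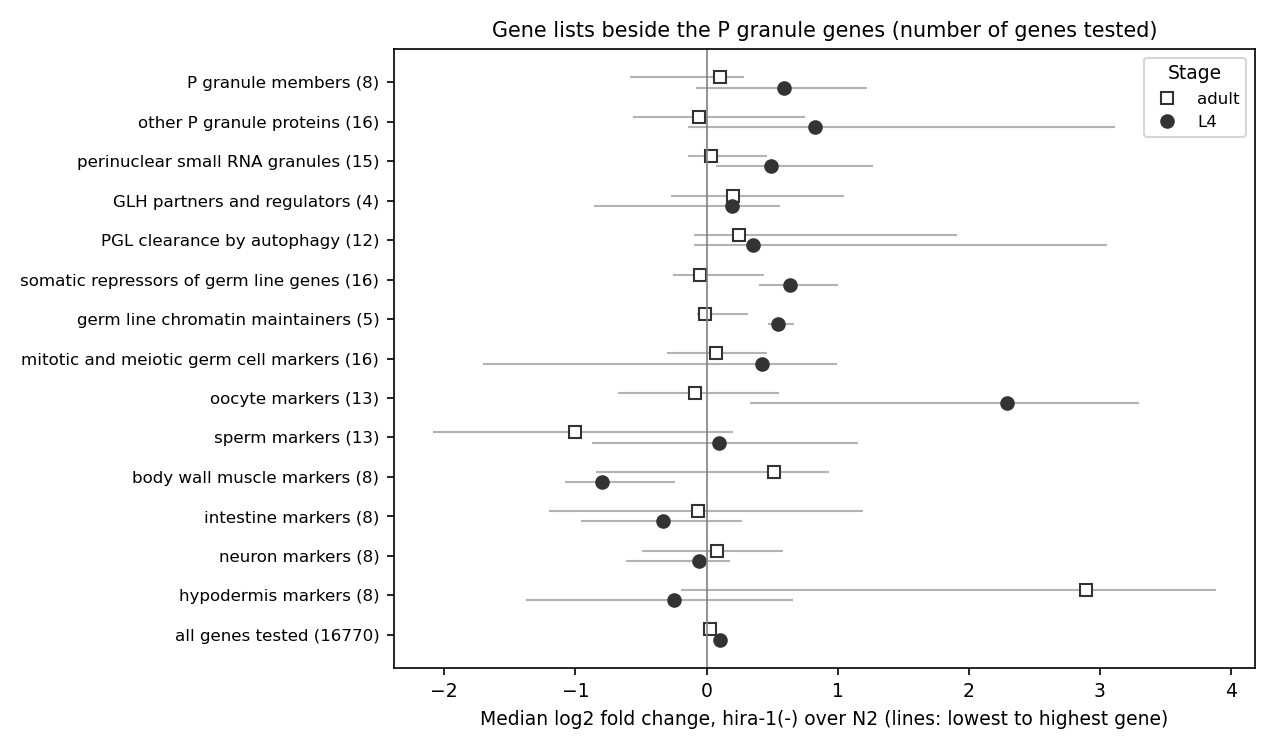
Median log2 fold change, hira-1(-) over N2 (x axis), of each gene list in adults and at L4, with the number of genes tested in parentheses and lines running from the lowest to the highest gene of a list. The P granule genes have medians of 0.10 in adults and 0.59 at L4, beside 0.07 and 0.42 for the germ cell markers, −0.09 (0.12 with library totals) and 2.29 for the oocyte markers and 0.03 and 0.10 for all genes tested.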

How the data were processed

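Whole-worm poly(A) RNA of hira-1(-) and N2 animals was sequenced with paired ends. Per the submitters' processing notes, the tools were SAMtools 0.1.19, RSEM 1.2.15 and Bowtie 1.0.1, with build ce10. The authors deposited RSEM estimated counts per gene, not normalized, and a table of log2 values that, by their decimals, are log2(FPKM + 1). Each table has 18 columns, of which 8 match a label and 10 match none and were not used. The column taken as replicate 2 of the hira-1(-) adults has the digit 1 where its sample's title has the letter I, so this match is less sure than the others. The estimated counts, once rounded, were fitted in R 4.3.3 by edgeR 4.0.16 (scaling by TMM, a minimum count of 10 and a minimum total of 15, robust quasi-likelihood fit of 4 groups with 4 residual degrees of freedom, Benjamini-Hochberg over 16770 genes). The script was tested on simulated data. The common biological coefficient of variation was 6.26%. Replicates differed by more than counting error, and more so in N2. Chi-square per degree of freedom was 5.76 in hira-1(-) adults, 19.2 in N2 adults, 6.02 in hira-1(-) larvae and 16.0 in N2 larvae. The fit shared 1 estimate of the spread over the 4 groups, so its p-values do not take up the wider spread of the N2 replicates. Names came from a table that matched 44080 of 45461 genes, and 150 of 152 list genes were found. Ribosomal RNA genes held 0.392 to 3.02% of the counts.

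The P granule genes and all lists were chosen with earlier results of these data known. All 8 P granule genes are named in every comparison, from each other list at most 4 members with the smallest adjusted p, and for pgl-1 and glh-1 the 5 genes of nearest pattern. A few list members are named at both stages although they lead at 1 of them, chosen after their values were seen. Alternatives were RLE factors, library totals, other filters, DESeq2 1.42.0, only the groups compared, a replicate block, a minimum of 1.5-fold, limma 3.58.1 on log2 FPKM, the counts less those of ribosomal RNA genes, and each library left out in turn.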

Additional observations from a re-analysis of the deposited data

Results flagged for a closer look

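The genotype difference changed with stage for each P granule gene. The test of the difference itself, adult minus L4 in log2 fold change of hira-1(-) over N2, passed by edgeR for all 8, with 29.7% of all genes tested passing in the same direction. The values were −0.49 for pgl-1, −0.52 for pgl-2, −0.36 for pgl-3, −0.50 for glh-1, −1.56 for glh-2, −0.81 for glh-3, −0.41 for glh-4 and −0.64 for deps-1. The interaction of pgl-3 lost its call in 8 of 18 alternatives, among them 4 of the 8 fits that left out a library. It also lost its call with the filter of 1 CPM, both limma fits and the minimum of 1.5-fold. Germ cell and oocyte markers shifted with stage in the same direction, and the part of those shifts in the result was not tested.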

How the results depend on the processing

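Over the 8 genes and 5 comparisons, 675 of 752 alternative values kept their direction and side of the threshold, 44 lost a call, 27 gained one and 6 changed sign. The sign changes were deps-1 in adults (0.0733 with library totals, 0.0746 and 0.0751 with limma on log2 FPKM with a pseudocount of 1 or 0.1) and glh-1 at L4 (0.0576, 0.0584 and 0.0586 with the same 3), none of them past the threshold. Among list genes the same 3 settings turned csn-5 in adults (0.0282, 0.0273 and 0.0277), mrg-1 in adults (0.14, 0.16 and 0.16) and kgb-1 at L4 (0.13, 0.13 and 0.13). In adults, library totals and both limma fits called 5 genes higher (5, 5 and 5) and 1 lower (1, 1 and 1), against 1 and 2. With library totals pgl-2 (0.31), pgl-3 (0.34), glh-3 (0.31) and glh-4 (0.36) passed as higher. A minimum of 1.5-fold left 0 higher and 0 lower in adults, 3 higher at L4, 2 lower interactions, and 4 higher and 0 lower between hira-1(-) stages. At L4, 1 gene, glh-1, was called lower with the filter of 1 CPM and with only the groups compared. The cause of these shifts was not tested. Leaving out each library gave 1 to 3 higher and 1 to 3 lower in adults, 7 to 7 higher and 0 to 1 lower at L4, 7 to 8 lower interactions, 7 to 8 higher and 0 lower between N2 stages, and 6 to 7 higher and 1 lower between hira-1(-) stages. With the replicate block 2 genes were higher in adults, glh-4 being added (adjusted p = 0.0384). Over all genes, correlations of same-numbered deviations between groups lay between −0.00288 and 0.0661. The share of ribosomal RNA was higher in replicate 1 than in replicate 2 of each group. Whether libraries of the same replicate number share a batch was not tested. Over all genes, counts of higher and lower calls moved to 2308 and 1135 in adults, 2043 and 1127 at L4, 1653 and 1634 for the interaction and 3473 and 4141 between hira-1(-) stages with the 1.5-fold minimum, to 7198 and 2320 in adults with library totals, and limma gave 2265 and 2288 lower in adults and, with a pseudocount of 0.1, 2466 lower at L4. Each P granule gene had at least 637.19 counts in every library, and how far depth or the number of libraries limits precision was not separated.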
